A study of Homo sapiens with 66 samples.

Results

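The IFIT family (interferon-induced proteins with tetratricopeptide repeats) was described here through its 4 human members of the chromosome 10 cluster, IFIT1, IFIT2, IFIT3, and IFIT5. They were found by Ensembl identifier among the 57820 genes of the count tables, and all 4 passed the filter on low counts in both RNA-seq studies, where 13027 and 13427 genes were tested. The cells were THP-1, a line from a human monocytic leukemia, and carried a Cas9 transgene throughout. Study 1 used 1 STING-deficient clone and had 48 libraries of whole-cell RNA in 16 groups of 3. These cells were nucleofected with guide RNA (gRNA) against ADAR, against HNRNPC (hnRNPC), or against both (ADAR+hnRNPC), with a GFP gRNA, or with the nontarget gRNA alone (CTRL), kept in medium, and harvested on days 3, 4, and 5. A further group of CTRL cells received IFN-alpha on day 3 and was harvested on day 4. Study 2 used a clone labelled wild type (WT) and obtained by limiting dilution, with other gRNAs against HNRNPC and ADAR. It had 18 libraries of day 4 in 9 groups of 2, which were total and cytosolic (digitonin-soluble) RNA for CTRL gRNA, for each single target, and for the double target, and nuclear/mitochondrial (digitonin-insoluble) RNA for hnRNPC alone. Cells with 1 targeted gene also received the nontarget gRNA.

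IFIT proteins are among the most strongly transcribed products of the type I IFN response. IFN bound to its receptor leads to the assembly of the transcription factor complex ISGF3, which contains IRF9 and binds an IFN-stimulated response element in the promoters of such genes. IFIT1 binds capped RNA that lacks 2′-O methylation at the first nucleotides and blocks its translation, IFIT3 binds and stabilizes IFIT1, IFIT2 binds AU-rich RNA and has been linked to cell death, and IFIT5 binds RNA with a 5′ phosphate. ADAR edits adenosine to inosine in double-stranded RNA (dsRNA), and hnRNPC is a nuclear protein that binds uridine-rich RNA, so the comparison of single with double targeting asks how far the loss of each protein, alone and together, turns on genes of the IFN response.

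The response element is shown first because it was found in all 3 members with a promoter row, IFIT1, IFIT3, and IFIT5. The promoter of IFIT2 was not searched. Promoters of RefSeq genes (table build GRCh38.p14, 250 bases before to 50 bases after each start) were searched for TTTCNNTTTC, or GAAANNGAAA on the other strand. Each of the 4 printed stretches also matched GRCh37 once, on chromosome 10, and its GRCh37 position is given. Capitals mark the motif, and all sequences are on the plus strand, which is the strand of all 4 genes.
IFIT1, chr10:91152249-91152301: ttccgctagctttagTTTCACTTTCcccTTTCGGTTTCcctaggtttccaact
IFIT3, first start, chr10:91087583-91087656: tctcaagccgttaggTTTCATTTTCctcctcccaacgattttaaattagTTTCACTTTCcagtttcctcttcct
IFIT3, second start, chr10:91092177-91092259: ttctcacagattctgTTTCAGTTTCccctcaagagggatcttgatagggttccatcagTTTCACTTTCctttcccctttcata
IFIT5, chr10:91174265-91174334: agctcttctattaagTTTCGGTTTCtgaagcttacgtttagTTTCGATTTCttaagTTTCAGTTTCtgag

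In IFIT1 the 2 motifs lay at -116 and -103 from the RefSeq start, and in IFIT5 the 3 motifs lay at -45, -19, and -4. At the first IFIT3 start they lay at -156 and -122, and at the second at -94 and -51. No motif copy overlapped another in these promoters. Of 35116 promoter rows of the table, 1255 (3.57%) held at least 1 motif and 91 (0.259%) held 2 or more. Counted by gene, with a motif in any of its rows, 1195 of 27305 genes held it. Of 20 other IFN-stimulated effector genes listed for comparison, 16 had a promoter row and 12 of these genes held the motif. The promoters of IFIT1B, a paralog of IFIT1, and of LIPA, a lysosomal lipase gene on the minus strand, held no copy of these letters.

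In GRCh37, with a GENCODE v44 annotation lifted to that build, IFIT2 lay at chr10:91043451-91069028, IFIT3 at chr10:91087064-91137230, IFIT1 at chr10:91152303-91166244, and IFIT5 at chr10:91174325-91181362. Members shared 0 stretches of 31 bases with each other. Of the 1942 such stretches of IFIT1B, 85 (4.38%) also occurred in IFIT1. The annotated exons of IFIT2 shared 589 bases with a long noncoding RNA of the same strand and with LIPA, and those of IFIT3 shared 94 bases with LIPA. The study states no strand setting for counting, so reads of LIPA cannot be told apart from reads of IFIT2 and IFIT3 in these bases. None of these bases lay in the exon stretches left between the deposited introns of IFIT2 and IFIT3.

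Libraries of study 1 held 95107690 to 152829008 gene counts and those of study 2 held 49666958 to 73873756. Values below are counts-per-million (CPM) on library sizes scaled with TMM factors. A gene was called with edgeR's quasi-likelihood test where its fold change reached 1 on the log2 scale in either direction, with a Benjamini-Hochberg adjusted p over all genes tested of at most 0.05. The share of all tested genes called in the same direction is given beside the first count of each comparison, and for comparisons between compartments it covers both directions. The study describes the replicates of both RNA-seq studies as independent experiments, and the labels do not say which libraries shared one. In bulk RNA, fewer responding cells and less RNA per cell cannot be told apart. Of 10 markers of a monocytic line, 8 were above 1 CPM in every library of both studies, whereas 3 of 3 T cell and 3 of 3 epithelial markers stayed below 1 CPM. The B cell gene PAX5 was above 1 CPM, while MS4A1 had at most 5 reads, and of the fibroblast genes only PDGFRB passed 1 CPM, with at most 2.43 CPM. PAX5 moved with the IFIT genes (3.72 with double targeting on day 5 and 2.83 with IFN-alpha, log2 fold change), and its part in the results was not tested. The targeted HNRNPC mRNA averaged 779 to 832 CPM in CTRL cells and 315 to 395 CPM in cells with hnRNPC gRNA in study 1, and 745 CPM against 463 CPM in hnRNPC-targeted cells in WT total RNA. ADAR mRNA, itself an IFN-stimulated transcript, averaged 394 to 424 CPM in CTRL cells, 368 to 386 CPM in ADAR-targeted cells, 1322 CPM in ADAR+hnRNPC-targeted cells on day 5, and 1236 CPM with IFN-alpha, so its level gave no check of the ADAR label in study 1. In WT total RNA, ADAR mRNA averaged 864 CPM in CTRL and 506 CPM in ADAR-targeted cells.

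IFIT genes were low in CTRL cells of the STING-deficient clone, at no more than 4.95 CPM, and reached 166 to 1854 CPM in ADAR+hnRNPC-targeted cells on day 5. IFIT1 had 0.586, 0.602, and 0.993 CPM in the CTRL libraries of day 5 and 726, 779, and 1112 CPM in the ADAR+hnRNPC libraries. IFIT2 had 1.55, 1.33, and 2.37 CPM against 1111, 1263, and 1854 CPM. The binding partner of IFIT1, IFIT3, had 3.02, 4.40, and 4.95 CPM against 697, 764, and 1111 CPM. In each of these genes the groups lay far apart, and replicate 3 was highest in both groups. IFIT5 had 3.58, 3.13, and 2.99 CPM against 166, 182, and 246 CPM, the lowest level of the family in ADAR+hnRNPC-targeted cells and its smallest relative difference. Log2 fold changes were 10.22 ± 0.38 (SE, n = 3) for IFIT1, 9.64 ± 0.28 for IFIT2, 7.69 ± 0.25 for IFIT3, and 5.94 ± 0.18 for IFIT5 (edgeR, adjusted p from 7.2e-24 to 6.28e-27). All 4 members were called, against 8.9% of all tested genes. By size of the fold change, IFIT1 and IFIT2 ranked 1 and 2 of the 13027 genes tested, IFIT3 ranked 5, and IFIT5 ranked 16. The filter used the mean over all libraries, so a gene low in CTRL cells, as IFIT1 was, could pass through its high groups. Genes that failed the filter, such as IFNB1, were not ranked. The other ranks below carry the same limit.

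**Figure D1:**
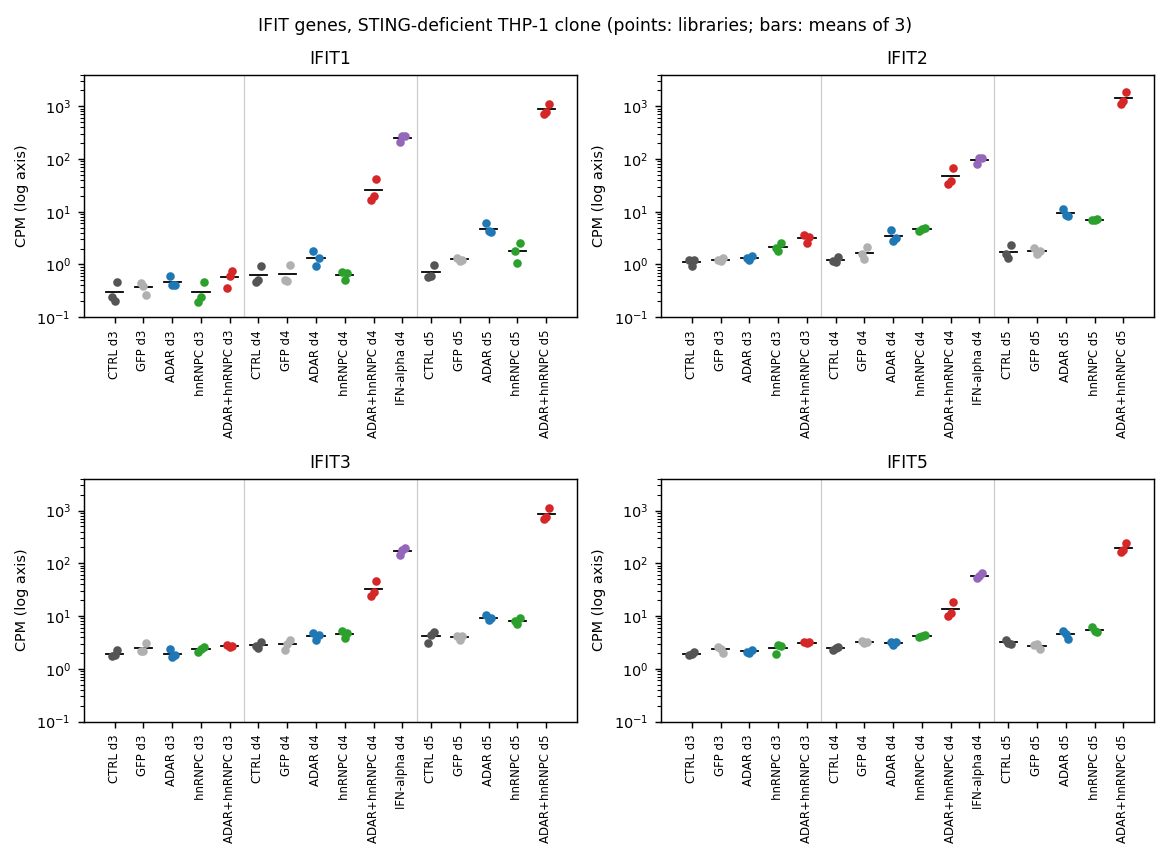
CPM of each IFIT gene (log axis) in the 48 libraries of the STING-deficient clone by group and day, with points for libraries and bars for the means of 3. ADAR+hnRNPC-targeted cells of day 5 are highest in all 4 panels (IFIT1 726 to 1112 CPM), followed by IFN-alpha (IFIT1 209 to 273 CPM) and by ADAR+hnRNPC-targeted cells of day 4 (IFIT1 16.9 to 41.5 CPM).

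The response built up over the 3 days of double targeting. On day 3, IFIT2 alone was called, with 3.65, 2.54, and 3.34 CPM against 1.20, 0.938, and 1.20 CPM in CTRL cells (log2 fold change 1.51 ± 0.26, edgeR adjusted p = 1.71e-05), while 0.691% of all genes were called. IFIT1 at 0.359, 0.608, and 0.746 CPM overlapped CTRL cells at 0.242, 0.204, and 0.458 CPM (log2 fold change 0.92 ± 0.52, adjusted p = 0.193). IFIT5 differed from CTRL cells by 0.71 ± 0.17 (adjusted p = 0.00177) and IFIT3 by 0.49 ± 0.24 (adjusted p = 0.122), both below the fold threshold.

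On day 4 all 4 members were called, against 2.95% of all genes. IFIT1 stood at 16.9, 20.3, and 41.5 CPM against 0.469, 0.513, and 0.942 CPM in CTRL cells, and IFIT2 at 34.0, 39.1, and 68.2 CPM against 1.15, 1.12, and 1.38 CPM. IFIT3 stood at 23.6, 28.2, and 47.2 CPM and IFIT5 at 10.1, 11.6, and 18.8 CPM, against 2.51 to 3.26 and 2.28 to 2.61 CPM in CTRL cells. Replicate 3 of the ADAR+hnRNPC libraries was again highest for every member. Log2 fold changes were 5.33 ± 0.33 for IFIT1, 5.27 ± 0.24 for IFIT2, 3.54 ± 0.22 for IFIT3, and 2.45 ± 0.16 for IFIT5. Between days 3 and 5 of double targeting the members rose by log2 10.58 ± 0.39, 8.79 ± 0.27, 8.31 ± 0.26, and 5.98 ± 0.18 in the same order, which made 4 of 4 called against 6.52% of all genes. The step from day 4 to day 5 was 5.05 ± 0.29 for IFIT1, 4.90 ± 0.22 for IFIT2, 4.70 ± 0.21 for IFIT3, and 3.88 ± 0.16 for IFIT5.

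Loss of ADAR alone raised 3 members by day 5. IFIT1 had 6.0, 4.24, and 4.18 CPM in ADAR-targeted cells of day 5, each above the highest CTRL library at 0.993 CPM (log2 fold change 2.71 ± 0.33, adjusted p = 1.43e-06). IFIT2 had 11.1, 8.87, and 8.28 CPM (2.42 ± 0.23, adjusted p = 4.13e-09) and IFIT3 had 10.4, 8.53, and 9.17 CPM (1.18 ± 0.20, adjusted p = 0.000439). IFIT5 had 5.26, 4.52, and 3.72 CPM, above the CTRL libraries without overlap, and was not called (0.48 ± 0.16, adjusted p = 0.0541). These 3 calls compare with 0.161% of all genes, and IFIT1 and IFIT2 ranked 1 and 2 by fold change. On day 4 IFIT2 was the single member called (1.50 ± 0.25, adjusted p = 0.00195), with 4.46, 2.73, and 3.18 CPM, against 0.0384% of all genes. That call was lost with limma-voom and with GFP-targeted cells as the control, and without a filter on low counts 2 members were called. On day 3 no member was called by edgeR, DESeq2, or limma-voom, 0 members had an unadjusted p under 0.05, and 0% of all genes were called.

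Loss of hnRNPC alone moved IFIT2 first and most. In hnRNPC-targeted cells IFIT2 had 2.04, 1.83, and 2.58 CPM on day 3, 4.32, 4.61, and 4.95 CPM on day 4, and 6.96, 6.95, and 7.29 CPM on day 5, each day above CTRL cells without overlap. On the log2 scale it exceeded CTRL cells by 0.95 ± 0.26 on the first of these days, 1.92 ± 0.24 on the second (adjusted p = 1.98e-08), and 2.00 ± 0.23 on the last (adjusted p = 9.34e-10). IFIT1 had 0.735, 0.510, and 0.685 CPM on day 4, within the range of CTRL cells, with a log2 fold change of -0.02 ± 0.41. On day 5 IFIT1 had 1.81, 1.06, and 2.56 CPM and was called (1.30 ± 0.35, adjusted p = 0.00151). IFIT3 and IFIT5 lay above CTRL cells of day 5, with 7.07 to 9.29 and 5.01 to 6.18 CPM, and stayed below the fold threshold at 0.97 ± 0.20 (adjusted p = 8.31e-05) and 0.77 ± 0.16 (adjusted p = 6.82e-05). The count of members called was thus 1 on day 4 and 2 on day 5, against 1.35% and 3.58% of all genes. It rested on the fold threshold on day 5: it ran from 1 to 3 with 1 library left out, and without replicate 3 of the hnRNPC libraries it was 1. Against GFP-targeted cells of day 5, IFIT1 was not called (0.54, adjusted p = 0.174), and IFIT3 (1.05) and IFIT5 (1.01) were. On day 3 edgeR called 0 members, with 2 at an unadjusted p under 0.05, against 0.476% of all genes, and DESeq2 called IFIT2, limma-voom none. IFIT2 was also called without replicate 1 or 3 of the CTRL libraries or replicate 2 of the hnRNPC libraries of day 3.

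GFP-targeted cells, a second control with another gRNA, gave no call of a member on days 3, 4, and 5, against 0.023%, 0%, and 0.161% of all genes. DESeq2 and limma-voom also called 0 members on each day, and an unadjusted p under 0.05 occurred for 0, 1, and 0 members. Day 5 values were 1.33, 1.19, and 1.21 CPM for IFIT1, above the 3 CTRL libraries (log2 fold change 0.77 ± 0.38, adjusted p = 0.21), and 2.07, 1.58, and 1.83 CPM for IFIT2, within the CTRL range.

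Control cells themselves drifted over time. IFIT1 rose from 0.242, 0.204, and 0.458 CPM on day 3 to 0.586, 0.602, and 0.993 CPM on day 5 in CTRL cells (log2 1.28 ± 0.49, adjusted p = 0.0495), and IFIT3 rose by log2 1.10 ± 0.23 (adjusted p = 0.000474). These 2 calls compare with 0.391% of all genes, and the count was 1 with limma-voom and ran from 0 to 2 with 1 library left out, lower without replicate 1 or 2 of day 3 or replicate 2 or 3 of day 5. In GFP-targeted cells IFIT1 was called (1.75 ± 0.45, adjusted p = 0.00895; background 0.415%) unless replicate 3 of day 3 was left out. All 4 members rose between these days in ADAR-targeted cells, by log2 1.07 to 3.35, and in hnRNPC-targeted cells, by 1.14 to 2.60, against 0.407% and 2.25% of all genes. Every contrast with CTRL cells above used cells of the same day.

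**Figure D2:**
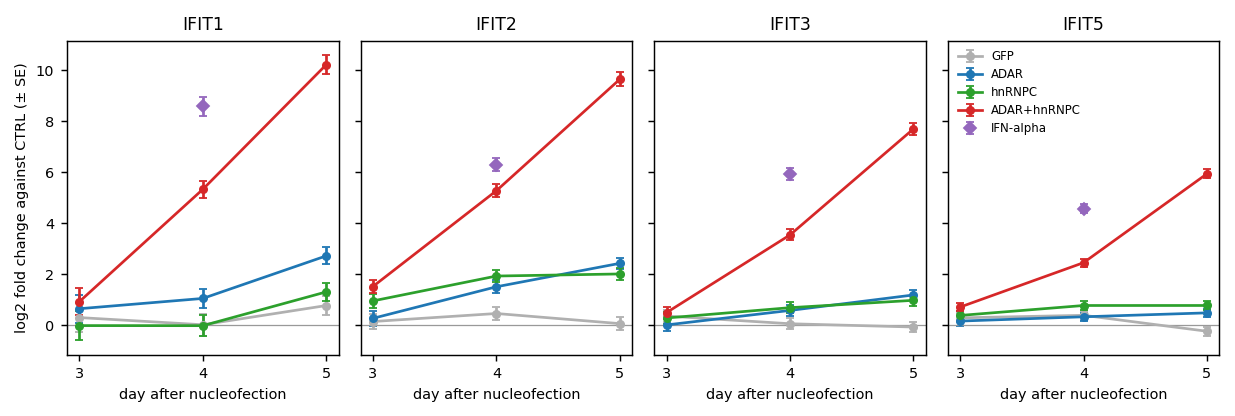
Log2 fold change against CTRL cells of the same day (error bars, SE) by day for the GFP, ADAR, hnRNPC, and double gRNA groups and for IFN-alpha on day 4. Double targeting climbs in all 4 panels, to 10.22 for IFIT1 and 5.94 for IFIT5, while single targeting reaches at most 2.71.

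Double targeting was next set against each single targeting. Against ADAR-targeted cells, 1, 4, and 4 members were called on days 3, 4, and 5, with 0.476%, 2.29%, and 7.02% of all genes. The call of day 3 was IFIT2 (1.25 ± 0.25, adjusted p = 0.000199). Against hnRNPC-targeted cells, 0, 4, and 4 members were called, with 0.0537%, 0.952%, and 5.48% of all genes. On day 3 DESeq2 and limma-voom also called 0 members and 1 member had an unadjusted p under 0.05. On day 5 IFIT1 was log2 7.50 ± 0.33 above ADAR-targeted and 8.92 ± 0.35 above hnRNPC-targeted cells, and IFIT5 was 5.46 ± 0.18 and 5.17 ± 0.17 above them.

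The interaction term asked whether the log2 change with both gRNAs exceeded the sum of the 2 single changes, in the 12 libraries of a day. On day 5 it was 6.20 ± 0.43 for IFIT1, 5.22 ± 0.29 for IFIT2, 5.54 ± 0.27 for IFIT3, and 4.69 ± 0.21 for IFIT5 (edgeR, adjusted p from 7.19e-08 to 1.27e-09). On day 4 it was 4.29 ± 0.53 (adjusted p = 0.00116), 1.84 ± 0.34 (adjusted p = 0.011), 2.28 ± 0.32 (adjusted p = 0.00205), and 1.35 ± 0.26 (adjusted p = 0.0142) in the same order. All 4 members lay above the sum at an adjusted p of at most 0.05 on both days, against 3.18% of all genes on day 4 and 24.1% on day 5. IFIT1, at the CTRL level in hnRNPC-targeted cells of day 4, had the largest term of the 13027 genes on both days. On day 3 the terms were 0.17 to 0.30, none passed with edgeR, DESeq2, or limma-voom, 0 members had an unadjusted p under 0.05, and 0% of all genes passed. With limma-voom IFIT2 was not called on day 4 (1.81, adjusted p = 0.0684).

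**Figure D3:**
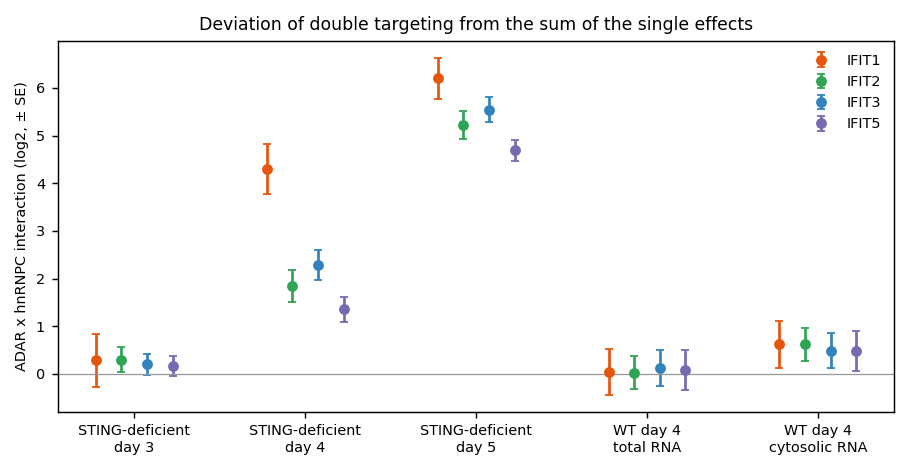
Interaction of ADAR and hnRNPC targeting (log2, error bars SE) for each IFIT gene by day in the STING-deficient clone and by RNA compartment in the WT clone of day 4. The 4 terms are near 0 on day 3 (0.17 to 0.30), between 1.35 and 4.29 on day 4, and between 4.69 and 6.20 on day 5, and in the WT clone they are between 0.03 and 0.62.

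IFN-alpha added to CTRL cells gave a reference for the family. IFIT1 had 209, 268, and 273 CPM, IFIT2 79.9, 103, and 102 CPM, IFIT3 145, 179, and 193 CPM, and IFIT5 51.9, 58.2, and 64.5 CPM. Each library lay above all CTRL libraries of day 4. Log2 fold changes were 8.58 ± 0.36, 6.28 ± 0.25, 5.92 ± 0.23, and 4.56 ± 0.17, so 4 of 4 members were called against 1.02% of all genes. IFIT1 ranked 1, IFIT2 ranked 8, IFIT3 ranked 10, and IFIT5 ranked 16 among all genes. ADAR+hnRNPC-targeted cells of day 5 were higher than IFN-alpha-treated cells of day 4 by log2 1.80 ± 0.25 for IFIT1, 3.89 ± 0.21 for IFIT2, 2.32 ± 0.19 for IFIT3, and 1.77 ± 0.15 for IFIT5 (4 of 4 called, 8.36% of all genes). Day and condition cannot be told apart in this contrast.

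The proportions of the members were not the same with double targeting as with IFN-alpha. Per exon length and within a library, IFIT2 stood at log2 -1.30 ± 0.02 (SD, n = 3) relative to IFIT1 with IFN-alpha and at 0.78 ± 0.06 with double targeting on day 5, and the groups did not overlap. On day 4, the day of the IFN-alpha libraries, ADAR+hnRNPC-targeted cells had 0.98 ± 0.15. hnRNPC-targeted cells of day 4 had the ratio at 2.95 ± 0.31, against 1.08 ± 0.39 in CTRL cells. By contrast, IFIT5 relative to IFIT1 was log2 -2.06 ± 0.04 with double targeting on day 5 and -2.02 ± 0.10 with IFN-alpha, with overlap (exact permutation test, two-sided, p = 0.6). On day 4 it was -0.82 ± 0.22 with double targeting, without overlap with IFN-alpha, so this likeness held only across different days. IFIT2 relative to IFIT3 was 0.94 ± 0.03 with double targeting on day 5 against -0.63 ± 0.06 with IFN-alpha. Of 32 such ratio tests, those without overlap gave p = 0.1, the smallest that 3 against 3 libraries allow in an exact permutation test, and 0.11 after Benjamini-Hochberg adjustment. The sign of a ratio depended on the length chosen for each gene, and the difference between groups did not.

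**Figure D4:**
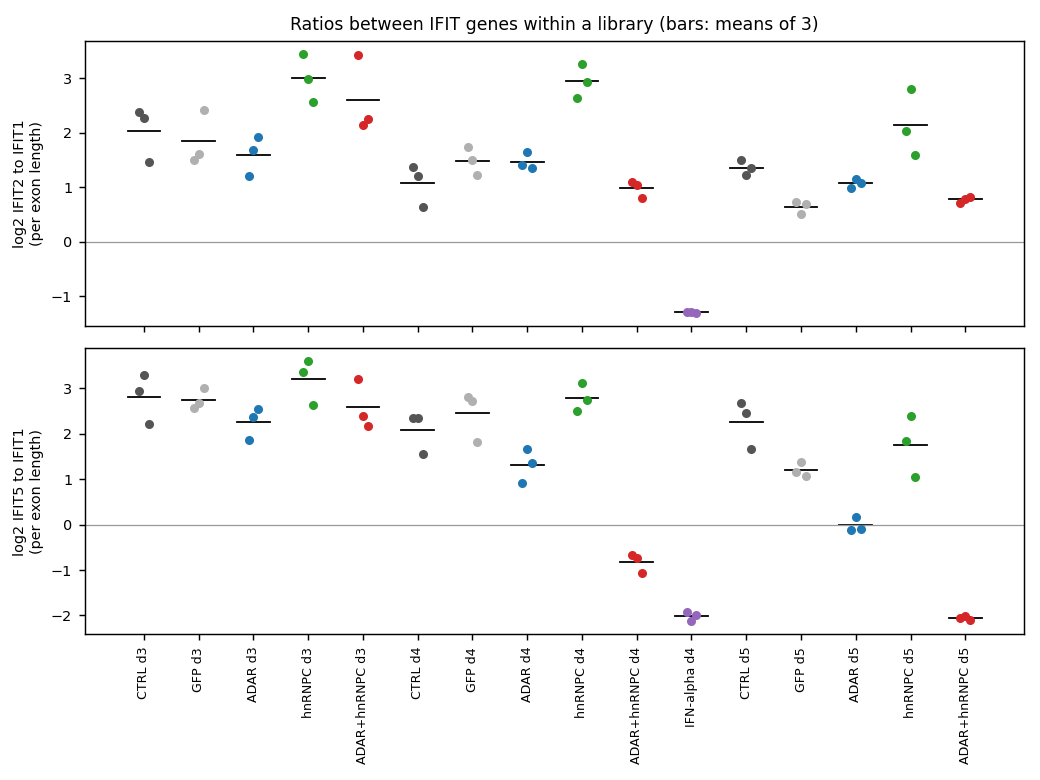
Log2 ratio of IFIT2 to IFIT1 (top) and of IFIT5 to IFIT1 (bottom), per exon length, in each library of the STING-deficient clone, with bars for the means of 3. IFN-alpha gives the lowest IFIT2 to IFIT1 ratio (-1.30) and hnRNPC-targeted cells of days 3 and 4 the highest (3.00 and 2.95), while the IFIT5 to IFIT1 ratios of IFN-alpha and of double targeting on day 5 lie together (-2.02 and -2.06). Double targeting on day 4 lies higher in the bottom panel (-0.82).

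Ordered by mean CPM, the 3 highest groups of study 1 were the same for all 4 members: ADAR+hnRNPC day 5, IFN-alpha day 4, and ADAR+hnRNPC day 4, none of which overlapped its neighbor below. For IFIT1 and IFIT2, ADAR day 5 came next, also without overlap. For IFIT1 the 9 lowest groups, from hnRNPC day 3 at 0.300 to CTRL day 5 at 0.727 CPM, overlapped each with the next. The order of genes per length within a group depended on the length used. With the union of annotated exons IFIT2 was highest in 15 of 25 groups of both studies, and with the exon stretches left between the deposited introns it was highest in 0 and IFIT3 in 19. IFIT5 was lowest in 13 groups with either length.

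Reads on introns moved with those on exons. The intron of IFIT2 (chr10:91061886-91065718) had 6, 3, and 1 reads in CTRL cells of day 5, 2316, 3027, and 3922 reads with double targeting on day 5, and 345, 289, and 299 reads with IFN-alpha. The intron of IFIT1 (chr10:91152475-91162037) had 7, 9, and 4 reads, 2077, 2577, and 3928 reads, and 774, 650, and 1222 reads in the same groups. In hnRNPC-targeted cells of day 4 the IFIT2 intron had 21, 20, and 22 reads and the IFIT1 intron 4, 1, and 0, the same order of genes as on exons. No IFIT intron passed the filter on average level, so these are values without a test in the filtered table. In a fit without the filter all 5 introns of the members were called (edgeR, median log2 fold change 7.68), with 9466 of 184258 introns called higher. From the values themselves, over the 5 introns of the members the median log2 difference of ADAR+hnRNPC-targeted from CTRL cells of day 5 was 7.58. Relative to the reads counted on exons of the gene, IFIT2 intron reads came to 1.78 ± 0.16% with double targeting on day 5 and 3.07 ± 0.90% with IFN-alpha. For IFIT1 these ratios were 2.61 ± 0.10% and 3.18 ± 0.69%. Across the 4 members exact permutation tests of this ratio, two-sided, gave p from 0.1 to 0.7 (adjusted 0.4 to 0.7). None of the 475962 editing sites and 2875 editing cluster regions of study 1, nor of the 318767 sites and 2794 regions of study 2, lay in a member gene, which is a fact of the deposited lists and not a measurement of editing in IFIT RNA.

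In the WT clone IFIT RNA was present in CTRL cells. Their total RNA had 20.2 and 11.2 CPM for IFIT1, 28.2 and 19.5 CPM for IFIT2, 33.0 and 22.6 CPM for IFIT3, and 8.39 and 5.22 CPM for IFIT5. CTRL cells of day 4 of the STING-deficient clone had at most 0.942, 1.38, 3.26, and 2.61 CPM. The studies were normalized separately and differ in clone, gRNAs, and number of replicates, so these levels stand side by side without a test. Double targeting gave 199 and 102 CPM for IFIT1, 260 and 147 CPM for IFIT2, 240 and 132 CPM for IFIT3, and 68.3 and 39.1 CPM for IFIT5 in total RNA. Replicate 1 was the higher library in 7 or 8 of the 9 WT groups, depending on the gene.

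ADAR targeting alone raised all 4 members in the WT clone. In total RNA of ADAR-targeted cells IFIT1 had 82.7 and 52.8 CPM and IFIT2 had 120 and 89.4 CPM, each above both CTRL libraries. Of 3 compartment markers (nuclear MALAT1, mitochondrial MT-ND1, cytosolic ACTB), 2 were called lower in this contrast, against 109 of all 13427 genes. Their median log2 fold change was -1.15, so the total RNA differed in more than the IFN response, and the cause was not tested. Log2 fold changes were 2.11 ± 0.36 (SE, n = 2) for IFIT1, 2.13 ± 0.26 for IFIT2, 1.75 ± 0.27 for IFIT3, and 1.99 ± 0.31 for IFIT5 (edgeR, adjusted p from 6.69e-05 to 0.00128), against 1.85% of all genes. For ADAR+hnRNPC-targeted cells they were 3.26 ± 0.37, 3.09 ± 0.26, 2.74 ± 0.28, and 2.98 ± 0.32 (4 called, 3.08% of all genes). The 4 members thus spanned 2.74 to 3.26, beside 2.45 to 5.33 on the same day in the STING-deficient clone. In hnRNPC-targeted cells IFIT1 had 43.5 and 24.1 CPM and the log2 fold changes were 1.10 ± 0.35, 0.94 ± 0.25, 0.86 ± 0.27, and 0.90 ± 0.30. None was called by edgeR, DESeq2, or limma-voom, all 4 had an unadjusted p under 0.05, and 0.261% of all genes were called. With edgeR, IFIT2 met the limit on adjusted p (0.0405) and missed the fold threshold, and IFIT1 reached the fold threshold at an adjusted p of 0.0707. IFIT3 (adjusted p = 0.0683) and IFIT5 (adjusted p = 0.0898) met neither limit. Without replicate 1 of the CTRL total RNA 4 of 4 were called there, and 1 was called with the replicate number as a block. The interaction terms of total RNA were 0.03 to 0.13 with SE of 0.35 to 0.48. No member passed with edgeR, DESeq2, or limma-voom or had an unadjusted p under 0.05, while 7.09% of all genes passed above the sum. The median term over all genes was -0.23, with 952 genes above and 2176 below the sum at an adjusted p of at most 0.05. The 2 libraries of CTRL total RNA, used in this contrast, differed by a chi-square per gene of 108, the largest of all replicate pairs.

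**Figure D5:**
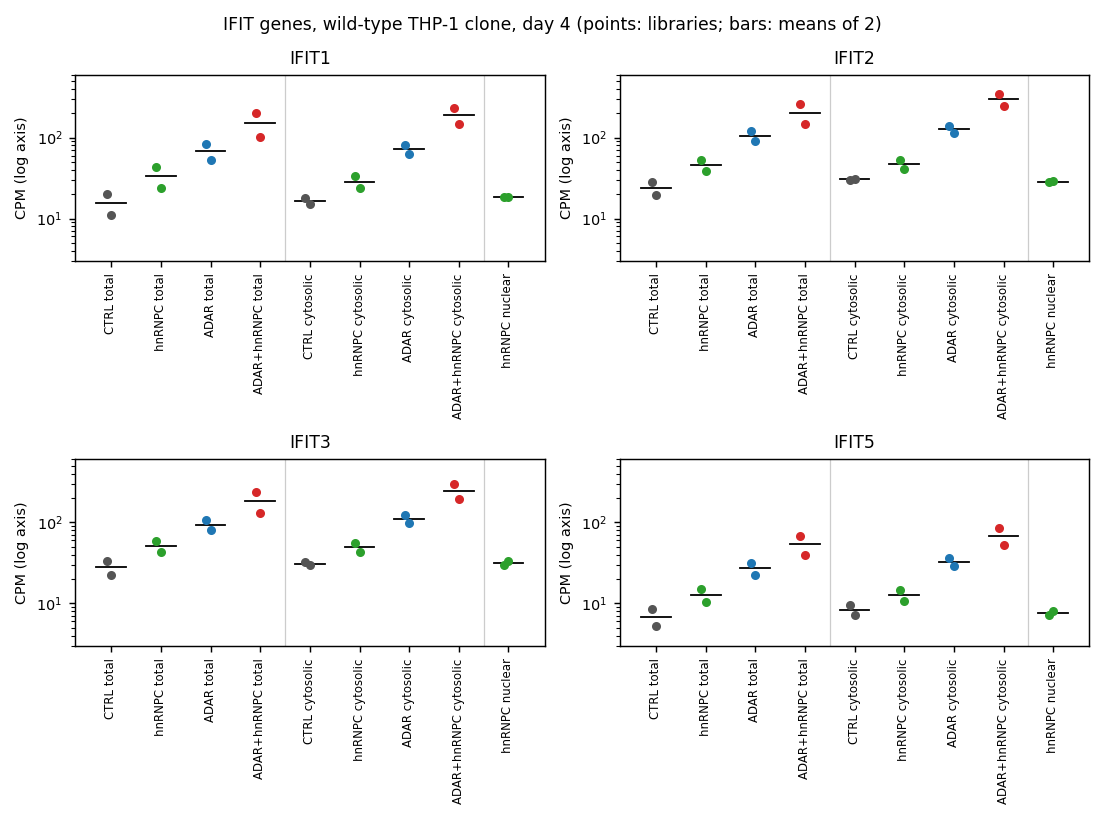
CPM of each IFIT gene (log axis) in the 18 libraries of the WT clone on day 4 by targeting and RNA compartment, with points for libraries and bars for the means of 2. In total and in cytosolic RNA the means climb from CTRL over hnRNPC and ADAR to ADAR+hnRNPC, for IFIT1 from 15.7 to 150.6 CPM in total RNA.

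IFIT RNA was found in cytosolic as in total RNA. The fractions separated for a mitochondrial marker: MT-ND1 had at most 2.90 CPM in cytosolic RNA against at least 29.8 CPM in total RNA. MT-ND1 does not report on carry-over of nuclear RNA. The nuclear marker MALAT1 had 377 to 2723 CPM across the libraries of study 2, and its level by fraction is not given here. Cytosolic RNA had 17.7 and 14.9 CPM of IFIT1 in CTRL cells, 33.4 and 23.5 CPM in hnRNPC-targeted, 81.0 and 62.2 CPM in ADAR-targeted, and 235 and 148 CPM in ADAR+hnRNPC-targeted cells. Against cytosolic CTRL RNA, log2 fold changes of the members were 1.84 to 2.13 in ADAR-targeted cells (4 called, 4.44% of all genes) and 3.00 to 3.55 in ADAR+hnRNPC-targeted cells (4 called, 6.44%). They were 0.59 to 0.80 in hnRNPC-targeted cells, where no tool called a member, 3 had an unadjusted p under 0.05, and 0.223% of all genes were called. Interaction terms were 0.47 to 0.62 with SE of 0.35 to 0.48, 0 members had an unadjusted p under 0.05, and 0% of all genes passed with edgeR. As a mean over the 4 gRNA groups, cytosolic minus total RNA was log2 0.06 ± 0.17 for IFIT1, 0.30 ± 0.12 for IFIT2, 0.19 ± 0.13 for IFIT3, and 0.22 ± 0.15 for IFIT5, with 0 members called and 1 at an unadjusted p under 0.05, against 8.39% of all genes called higher or lower (81 genes higher and 1045 lower). In hnRNPC-targeted cells IFIT1 had 18.5 and 18.6 CPM and IFIT2 28.2 and 28.9 CPM in nuclear/mitochondrial RNA, below both cytosolic libraries. Cytosolic minus nuclear/mitochondrial RNA was log2 0.62 to 0.72, with 0 members called and 3 at an unadjusted p under 0.05, while 30% of all genes were called higher or lower (2100 genes higher and 1925 lower). DESeq2 and limma-voom called 0 members in both of these compartment comparisons.

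Relatives and neighbors of the family were counted but mostly too low to test. IFIT1B had 61 to 130 reads in ADAR+hnRNPC-targeted cells of day 5, 4 to 11 reads with IFN-alpha, and 0 to 3 reads in all other groups of study 1. That was 0.708 to 0.886 reads per 1000 reads of IFIT1 on day 5 of double targeting. The pseudogene IFIT1P1 had 0 to 39 reads in study 1. Within 300 kb of the cluster, 24 genes had a row, 9 were tested, and of the 5 that are no members 2 were called higher in ADAR+hnRNPC-targeted cells of day 5, against 8.9% of all genes: ACTA2, a smooth muscle actin (log2 2.88 ± 0.21), and FAS, a death receptor (2.66 ± 0.14). Both were also called in hnRNPC-targeted cells of day 5 (1.65 ± 0.21 and 1.49 ± 0.14) and neither with IFN-alpha (0.27 ± 0.22 and 0.52 ± 0.14). On the other strand, the LIPA gene as annotated in GENCODE v44 covered IFIT2, IFIT3, and IFIT1 and ended before IFIT5. LIPA had 75.7 to 82.2 CPM in ADAR+hnRNPC-targeted and 132.7 to 150.3 CPM in CTRL cells of day 5 (log2 -0.86). PANK1 and KIF20B were at 0.05 and -0.09.

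Genes that act before and beside the IFIT genes were followed through lists chosen with earlier results of these data known. Their counts stand beside 8.9% of all genes called higher with double targeting on day 5 and 1.02% with IFN-alpha. Among IFN ligands no gene passed the filter, so read counts are given. IFNB1 had 1478 to 3517 reads in ADAR+hnRNPC-targeted cells of day 5, 89 to 157 on day 4, 6 to 38 in ADAR-targeted cells of day 5, and 0 to 5 with IFN-alpha. IFNL1 had 186 to 608 reads in ADAR+hnRNPC-targeted cells of day 5, IFNA1 had 0 reads in every library, and IFNA2 had at most 2. In the WT clone IFNB1 had 8 to 15 reads in CTRL, 65 to 83 in ADAR-targeted, and 116 to 165 in ADAR+hnRNPC-targeted total RNA. Of the ISGF3 genes, STAT2 (log2 2.47 ± 0.10) and IRF9 (2.88 ± 0.31) rose in ADAR+hnRNPC-targeted cells of day 5. With IFN-alpha they rose by 1.73 and 2.60, while the receptor genes IFNAR1 and IFNAR2 were at -0.06 and -0.01 in double targeting. The kinases TYK2 and JAK1 were at 0.31 and 0.14. Of 9 tested genes of dsRNA sensing 5 rose on day 5 of double targeting, led by DDX58, the sensor RIG-I (5.52 ± 0.15), and the transcription factor IRF7 (5.33 ± 0.21), while IRF3 and MAVS were at 0.03 and -0.14. Of 3 tested brakes of the IFN response all rose: ISG15 (6.81 ± 0.22), USP18 (6.27 ± 0.23), and SOCS3 (1.05 ± 0.23). Among 6 genes of cap methylation and eIF3, the cap methyltransferase CMTR1, whose mark hides RNA from IFIT1, rose by 2.17 ± 0.08 and EIF3E, a subunit of an initiation factor that IFIT proteins bind, fell by 1.06 on the log2 scale. Of 20 listed other IFN-stimulated effectors, 15 passed the filter in study 1, and the rest were not tested. The filter averaged all libraries, so a gene low in CTRL cells could pass through the groups where it was high. The counts and medians of tested genes in every list carry this limit. Of these 15 effectors, 15 rose on day 5 of double targeting and 15 with IFN-alpha. They ran from BST2 (1.23 and 2.04) and EIF2AK2 (3.06 and 2.67) to MX1 (8.55 and 8.11) and OASL (9.36 and 6.83). The median over these 15 was 5.64 on day 5, beside 8.67 for the 4 IFIT genes and -0.04 for all genes tested.

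Across the 16 group means of study 1, the genes most like IFIT1 by Pearson correlation of log2 CPM, with the other IFIT genes left out of the ranking, were OAS1 (0.993), MX1, EPSTI1, OAS2, and OAS3 (0.989), and in the same ranking those most like IFIT2 were OASL (0.992), IRF9, TRIM22, IRF7, and EPSTI1 (0.970). For IFIT3 they were EPSTI1 (0.996), OAS1, IRF7, OAS3, and OASL (0.990), and for IFIT5 SP110 (0.992), PARP9, EPSTI1, IFIH1, and IRF7 (0.988). Members correlated with each other at 0.966 (IFIT1 with IFIT2) to 0.993 (IFIT3 with IFIT5, above every gene listed for IFIT5), and the median of all genes was -0.11 to -0.09. These values describe 16 groups of 1 study, each a mean of 3 libraries.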

How the data were processed

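RNA of 66 THP-1 libraries was sequenced from stranded total RNA libraries depleted of ribosomal RNA. The authors aligned reads with STAR 2.5.4a to GRCh37, counted uniquely mapped reads on GENCODE exons with featureCounts, and deposited raw counts per gene, and in study 1 per intron, without normalization. Groups were taken from the labels, and all columns used were matched to a sample. The members and gene lists were chosen with earlier results of these data known.

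Genes with a mean log2 CPM (prior count 2) of at least 0.5 were tested in R 4.3.3 with edgeR 4.0.16 (TMM, glmQLFit, glmQLFTest, 1 coefficient per group over all libraries of a study, and a 2 x 2 fit per day for interactions in study 1). The script was tested on simulated data. limma 3.58.1 (voom), DESeq2 1.42.0, other filters, another control, a replicate block, and leaving out each library were alternatives. Ratios used union exon lengths and 0.5 added counts. Replicate pairs differed by a chi-square per gene of 13.9 or more, so none agreed within sampling noise. Same-numbered libraries all correlated above 0.1 in 11 of 27 comparisons of study 1, and study 2 had 2 numbers only, so the block stayed an alternative. Named genes were the members, relatives, genes within 300 kb, the list extremes, and the 5 genes most like each member. Of the editing tables only positions were used. IKBKE had no matched row. Some listed genes are not reported here.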

Additional observations from a re-analysis of the deposited data

Results flagged for a closer look

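The change of each IFIT gene with hnRNPC targeting differed between ADAR-targeted and other cells on days 4 and 5 of the STING-deficient clone, by the test of the interaction term. The terms (log2) were 4.29 on day 4 and 6.20 on day 5 for IFIT1, 1.84 and 5.22 for IFIT2, 2.28 and 5.54 for IFIT3, and 1.35 and 4.69 for IFIT5. In each of these 8 cases the 3 ADAR+hnRNPC libraries lay above every library of the other 3 groups of the day. Groups had 2 or 3 libraries, so single libraries were not tested for standing apart.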

How the results depend on the processing

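Over the 44 comparisons, the count of IFIT genes called stayed within 1.5 times its value in 229 of 237 refits with another tool, filter, normalization, control, or block, and in 263 of 274 refits with 1 library left out. For ADAR against CTRL on day 4 (1 called) the count was 0 with limma-voom, 0 with GFP-targeted cells as the control, and 2 with no filter on low counts. It was 1 for hnRNPC on day 3 with DESeq2 (0 called), and 1 for CTRL day 5 against day 3 with limma-voom (2 called). For WT hnRNPC total RNA (0 called) it was 1 with no filter, 1 with the replicate block, and 1 with the crossed replicate block. With 1 library left out the count ran from 0 to 1 for hnRNPC on day 3, 1 to 3 for hnRNPC on day 5, 0 to 2 for CTRL and 0 to 1 for GFP day 5 against day 3, 0 to 4 for WT hnRNPC total RNA, and 0 to 1 for WT cytosolic against total RNA of ADAR+hnRNPC-targeted cells, where leaving out replicate 1 of total RNA gave the call. In CTRL day 5 against day 3, the count was lower without replicate 1 or 2 of day 3 or replicate 2 or 3 of day 5. The cause of these changes was not tested. With the replicate block the other 43 counts stayed within 1.5 times their values. Since same-numbered WT libraries of hnRNPC total and of nuclear RNA correlated negatively, their numbers were also exchanged, a choice made after seeing the data, which gave 1 and 0 called. In the per-length order, IFIT2 was highest in 15 groups with union exons and in 0 with the exon stretches between deposited introns, a length also added after seeing the data. Among the 5 genes most like each member, 3, 2, 2, and 1 (IFIT1, IFIT2, IFIT3, IFIT5) were also among the 5 by Spearman correlation. Over the 5 introns, library sizes of their own gave a median of 7.80 and a fit without the filter 7.68, in place of 7.58. With 2 or 3 libraries per group and CTRL counts of IFIT1 as low as 23 reads, small changes of IFIT1 on day 3 were not detectable at this depth.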
